A study of Mus musculus with 10 samples.

Results

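Guanylate binding proteins (GBPs) are large GTPases that interferons, above all interferon-γ (IFN-γ), switch on in many cell types. IFN-γ binds a receptor made of IFNGR1 and IFNGR2, and the transcription factor IRF1 is among the proteins that act on the promoters of Gbp genes downstream of it. The proteins bind GTP, assemble into coats on the vacuoles of intracellular microbes, often together with the immunity-related GTPases (IRGs), and help to open these vacuoles and to expose microbial products to inflammasomes. Some GBPs carry a C-terminal prenyl anchor that ties them to membranes. The transcripts of 9 murine genes of this family, Gbp2, Gbp2b, Gbp3, Gbp4, Gbp5, Gbp6, Gbp7, Gbp8 and Gbp9, are described here in keratinocytes and CD8+ T cells that were cultured apart or together. They were chosen by name, and all 9 were found in each of the 10 gene tables among 25814 genes.

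Keratinocytes were isolated from the tails of adult C57/B6 mice and grown in serum-free keratinocyte medium, and were collected either alone or after culture with CD8+ T cells. By the methods, co-cultures also held X-vivo medium, in which the T cells had been activated, and no such addition was stated for keratinocytes alone. T cells and medium therefore cannot be told apart in any comparison of the keratinocyte groups. The T cells were taken from spleen with CD8 microbeads and pre-activated with αCD3/CD28 antibodies for 1 d. One T cell group was collected after the activation, a second was held for 1 further day in medium that the labels name as that of keratinocytes and the study's methods as its mix with X-vivo medium, and the last spent that day with keratinocytes. The labels give the co-culture as 1 d and the design text as 1 h, and no genotype other than that of unmodified mice was named for these samples. Each of the 5 groups held 2 libraries, and nothing in the labels says that the 2 came from separate animals, so every p-value measures the spread between these libraries, which may be technical.

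Each library carried between 12864931 and 18019609 reads on exons, of which 78.2% to 87.2% had a single place in the genome. Summed RPKM (reads normalised to exon length and to the number of mapped reads) of 10 keratinocyte markers was about 16951 to 20995 in keratinocyte libraries, 3.88 to 7.32 in T cells that had met no keratinocytes and 118.5 and 39.5 in co-cultured T cells. In keratinocytes Krt5, Krt14 and Krt6a held most of this sum. Krt5 was higher after co-culture, and Krt14 and Krt6a overlapped between the groups. Krt1, Krt10, Trp63, Dsg3, Dsp, Itga6 and Lama3 were lower in both co-cultured libraries than in either library alone. Dsp had 580.9 and 459.5 RPKM alone and 105.6 and 13.04 RPKM after co-culture. Why these markers were lower was not tested. The T cell markers Cd8a and Cd8b1 together reached 0.224 and 1.47 RPKM in keratinocytes alone and 1.32 and 3.16 RPKM after co-culture, against a mean of 764.6 RPKM in co-cultured T cells. Summed over all 11 T cell markers, Cd3d and Cd4 among them, the keratinocyte libraries held more, 103 and 393 RPKM alone and 129 and 709 RPKM after co-culture. The second keratinocyte library of each group thus held the most T cell marker RNA, and Trac, Trbc2 and Trdc, the constant parts of the T cell receptor, were listed at 0 in every library.

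The Gbp genes lie in 2 clusters (GRCm38). Gbp5, Gbp7, Gbp3, Gbp2b and Gbp2 follow each other on the forward strand of chromosome 3, from chr3:142493978 at the start of Gbp5 to chr3:142638008 at the end of Gbp2. Gbp8, Gbp9, Gbp4 and Gbp6 lie on the reverse strand of chromosome 5, from chr5:105014150 to chr5:105293698. The annotated span of Gbp8 covers 125391 bases and encloses that of Gbp9 and most of that of Gbp4, so that reads in its introns can belong to its neighbours. Gbp10, a further gene of the cluster on chromosome 5, and the pseudogene Gbp11 were also listed in the tables but are no members of the list.

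The sequences in front of the chromosome 3 genes are shown because interferons act on such regions and because the genes they belong to reached very different levels. RefSeq (GRCm38.p6) gave start regions for 5 members, all from chromosome 3, and none was used for Gbp4, Gbp6, Gbp8 and Gbp9. Each line holds the 250 bases before the annotated first transcribed base, 5′ to 3′ on the forward strand. Capitals mark matches to the core of the interferon-stimulated response element (ISRE, GAAANNGAAA) and to the γ-activated site (GAS, TTCNNNGAA), searched on both strands.
Gbp2, chr3:142620413-142620662: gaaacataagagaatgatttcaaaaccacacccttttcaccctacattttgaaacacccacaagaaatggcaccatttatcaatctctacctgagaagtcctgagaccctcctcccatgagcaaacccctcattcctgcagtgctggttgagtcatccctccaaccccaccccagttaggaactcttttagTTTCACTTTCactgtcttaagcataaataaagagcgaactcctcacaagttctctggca
Gbp3, chr3:142559794-142560043: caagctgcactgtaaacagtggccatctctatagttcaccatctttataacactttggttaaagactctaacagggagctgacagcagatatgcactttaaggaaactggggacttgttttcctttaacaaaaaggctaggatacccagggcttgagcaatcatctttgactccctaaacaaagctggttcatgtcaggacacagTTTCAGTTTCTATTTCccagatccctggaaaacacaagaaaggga
Gbp7, chr3:142530086-142530335: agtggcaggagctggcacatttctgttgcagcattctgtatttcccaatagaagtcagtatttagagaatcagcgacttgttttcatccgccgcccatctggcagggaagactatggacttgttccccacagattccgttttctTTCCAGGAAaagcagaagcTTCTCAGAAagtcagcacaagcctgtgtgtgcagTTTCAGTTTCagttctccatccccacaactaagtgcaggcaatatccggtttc
Gbp5, chr3:142496684-142496933: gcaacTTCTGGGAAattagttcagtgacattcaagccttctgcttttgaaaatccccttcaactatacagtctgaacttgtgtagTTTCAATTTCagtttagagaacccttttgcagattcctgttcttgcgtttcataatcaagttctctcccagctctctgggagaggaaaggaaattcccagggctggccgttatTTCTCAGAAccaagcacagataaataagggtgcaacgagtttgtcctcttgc
Gbp2b, chr3:142594597-142594846: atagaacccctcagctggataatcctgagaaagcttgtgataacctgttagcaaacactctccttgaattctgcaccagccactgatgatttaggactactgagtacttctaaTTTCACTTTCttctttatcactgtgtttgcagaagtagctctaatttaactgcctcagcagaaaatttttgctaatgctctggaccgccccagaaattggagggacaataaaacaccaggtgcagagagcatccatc

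The ISRE letters were found in front of all 5 genes, on the reverse strand throughout. They stood at −59 to −50 in Gbp2, at −53 to −44 in Gbp7, at −165 to −156 in Gbp5 and at −137 to −128 in Gbp2b. Gbp3 held 2 matches that overlap, at −45 to −36 and at −39 to −30, so that its capitals form 1 run. Of all 32851 regions of the same 300 bases, which also take in the first 50 transcribed bases, 1131 or 3.44% held the ISRE letters. The GAS letters, which read alike on both strands, occurred 2 times each in front of Gbp5 and Gbp7, not in the windows of Gbp2, Gbp3 and Gbp2b, and in 8.30% of all regions. A second annotated start of Gbp3, further downstream, held neither motif. The tables' own gene models of Gbp2, Gbp3 and Gbp5 begin upstream of the RefSeq starts used here, so the distances hold for the RefSeq starts only. Matches are letters in a window, and binding was not measured.

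**Figure D1:**
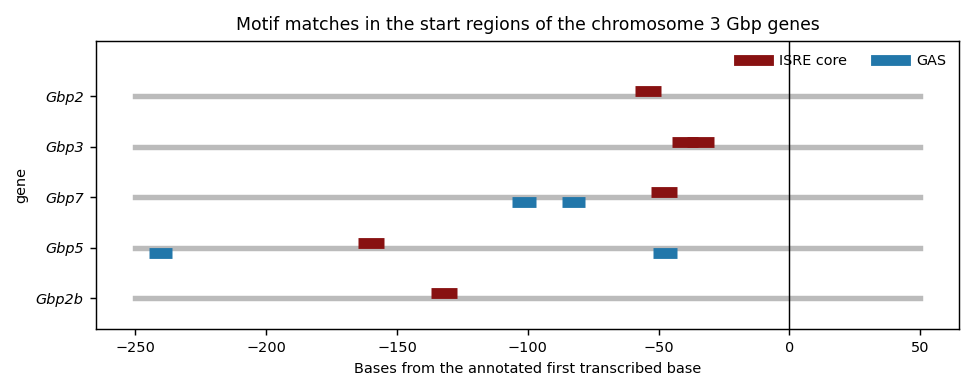
Positions of ISRE core (red) and GAS (blue) letters in the start regions of 5 Gbp genes; the x axis gives bases from the RefSeq first transcribed base, the grey bars the 300 bases searched. All 5 genes hold ISRE letters, within 59 bases of the start in Gbp2, Gbp3 and Gbp7 and farther away in Gbp5 and Gbp2b.

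The reads of the 2 clusters were not equally well placed. Pooled over the 10 libraries, 98.8% of the 62727 exon reads of Gbp2, 96.0% of Gbp3, 97.8% of Gbp7, 99.9% of Gbp5 and 99.0% of Gbp2b had a single place in the genome. On chromosome 5 this held for 82.6% of the reads of Gbp8 but for 13.7% of Gbp9, 12.5% of Gbp4 and 0.428% of Gbp6. For Gbp6, 46 of 10741 reads were placed uniquely. Its levels are therefore those of a group of copies among which the mapping software distributed reads, and those of Gbp4 and Gbp9 rest mostly on such distributed reads.

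In the GENCODE vM21 transcripts, 69.4% of all 59-base windows of Gbp6, the length of a read, also occurred in another gene. Most of these, 63.8% of the windows, belonged to the read-through gene Gm43302 that runs across Gbp10 and Gbp6, and 43.8% to Gbp10. For Gbp4 and Gbp9 only 5.58% and 5.81% of windows were shared, far fewer than the share of their reads without a single place. For Gbp6 too, 30.6% of windows were found in no other gene, although 0.428% of its reads were unique. What set the reads of these genes apart was not tested. Gbp7 shared 12.1% of its windows, most of them with Gm43802, yet 97.8% of its reads were unique.

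Reads in introns marked out Gbp8 as well. Introns held 29.0% of its 3824 gene reads, from 11.2% to 49.2% by library, against 1.84% to 4.26% of all gene reads in a library. Introns held 7.68% of the reads of Gbp5, and 2.25% or less of the reads of the other 7 members.

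**Figure D2:**
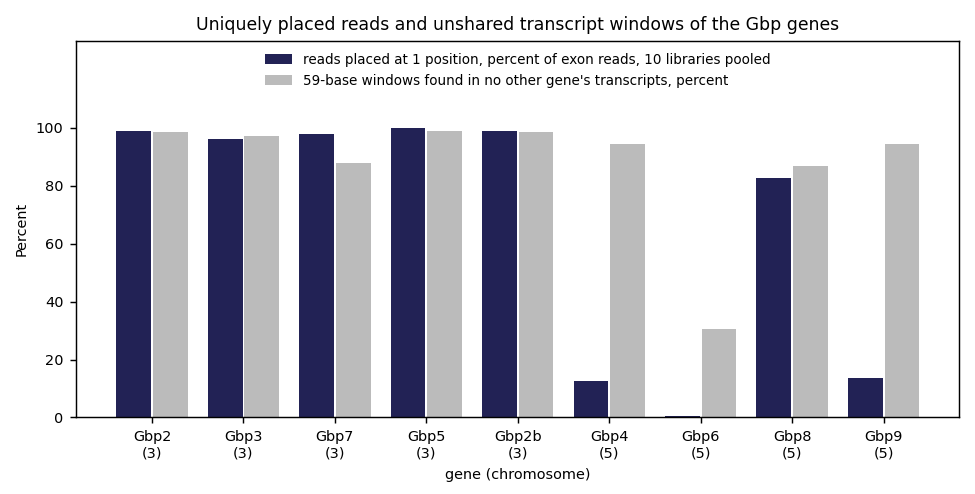
Percent of exon reads with a single place in the genome, 10 libraries pooled (dark bars), and percent of 59-base transcript windows found in no other gene (grey bars), for each Gbp gene. Gbp4, Gbp6 and Gbp9 have at most 13.7% unique reads, while the members of chromosome 3 have at least 96.0%.

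In keratinocytes alone the family was low. The summed level of the 9 genes was 6.82 and 16.9 RPKM in the 2 libraries of keratinocytes alone and 756.7 and 284.7 RPKM in co-cultured keratinocytes. It was 145.2 and 85.5 RPKM in activated T cells, 366.7 and 200.8 RPKM in T cells in keratinocyte medium and 375.9 and 138.7 RPKM in co-cultured T cells. Keratinocytes alone thus lay below all other groups without overlap, whereas the other 4 groups overlapped with their neighbours when ordered by their means, from keratinocytes with T cells down to T cells fresh from activation. In bulk samples of this kind, fewer expressing cells and less RNA per cell cannot be told apart.

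The make-up of the family also differed between the cell types. Genes of chromosome 3 accounted for 97.8% and 93.9% of the summed RPKM in co-cultured keratinocytes, for 69.8% and 61.6% in keratinocytes alone, and for 65.9% to 81.1% in the 6 T cell libraries. Gbp2, the most abundant member in every library, and Gbp3 carried this difference. The members of chromosome 5 together reached 17.2 ± 0.255 RPKM (SD, n = 2) in co-cultured keratinocytes and 68.4 ± 29.8 RPKM in co-cultured T cells.

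**Figure D3:**
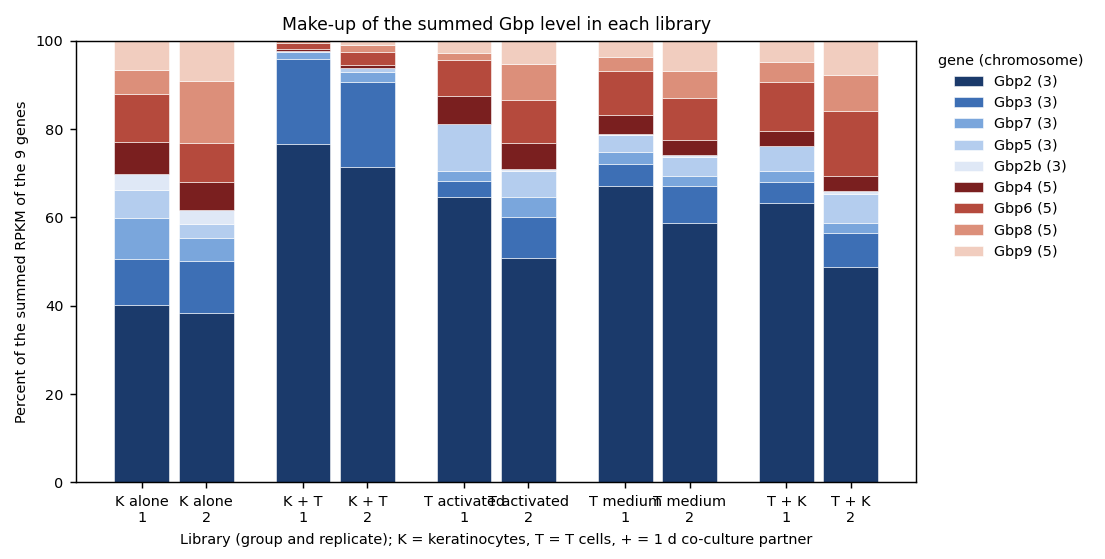
Share of each Gbp gene in the summed RPKM of the 9 genes, 1 bar per library, blue for chromosome 3 and red for chromosome 5. Blue takes 93.9% or more of both co-cultured keratinocyte bars and at most 81.1% of any other.

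The first comparison sets keratinocytes from the co-culture with CD8+ T cells, and in its mixed medium, against keratinocytes alone. Gbp2 and Gbp3 showed the largest differences of the family, followed by Gbp7, Gbp6 and Gbp5. Gbp8, Gbp4 and Gbp9 differed by less, and Gbp2b stayed low in both groups. edgeR's quasi-likelihood test with Benjamini-Hochberg adjustment over 12515 genes called 0 of the 9 members and 0.0% of all genes, whereas DESeq2 called 5 members higher, Gbp2, Gbp3, Gbp5, Gbp6 and Gbp7, beside 0.636% of the 13369 genes with an adjusted p. At an unadjusted edgeR p under 0.05 the same 5 members were higher, beside 3.08% of all genes, and 901 genes passed in either direction. Without the first co-cultured library edgeR called 5 members higher, beside 0.816% of all genes, and without the second 3 members, beside 0.163%, with the lone library assumed to vary like the others. Without either library of keratinocytes alone it called 0 members. With 2 against 2 libraries an exact permutation test cannot go below a two-sided p of 0.333.

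Gbp2, a prenylated member that coats the vacuoles of bacteria and parasites, had 2.74 and 6.47 RPKM without T cells and 579 and 203 RPKM with them. Both co-cultured libraries lay above both others, although they differed from each other 2.85-fold. The log2 fold change was 6.43 (SE 0.84, edgeR adjusted p = 0.435, DESeq2 adjusted p = 1.58e-19), and it ranged from 5.58 to 7.21 over the 14 alternative settings. It ranked 16 of 12515 genes.

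Gbp3, its neighbour on chromosome 3, showed 0.708 and 1.98 RPKM in the control cultures and 147 and 55.1 RPKM in the co-cultures. Again the groups were far apart and the first co-cultured library was the higher. The log2 fold change was 6.25 (SE 0.85, edgeR adjusted p = 0.435, DESeq2 adjusted p = 3.17e-17), and a fit of all 10 libraries together called it.

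Gbp7, which helps to deliver the parts of the NADPH oxidase to vacuoles, reached 0.629 and 0.900 RPKM without T cells and 12.01 and 6.05 RPKM with them. The log2 fold change was 3.61 (SE 0.48, edgeR adjusted p = 0.435). Gbp6 reads, which cannot be told from those of its copies, gave 0.745 and 1.53 RPKM and then 10.9 and 8.42 RPKM, with a log2 fold change of 3.14 (SE 0.50, edgeR adjusted p = 0.523). For both genes the groups did not overlap, and the distance between the groups was larger than that within them. Counted together, the reads of Gbp6, Gbp10 and Gm43302 came to 3.39 and 11.6 CPM (counts scaled to the exon reads of the library) in keratinocytes alone and 58.0 and 41.4 CPM in co-culture.

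Gbp5, a prenylated member known for promoting inflammasome assembly, was low throughout in keratinocytes, with 0.435 and 0.500 RPKM alone and 1.96 and 2.56 RPKM after co-culture. Its log2 fold change was 2.35 (SE 0.51, edgeR adjusted p = 0.658, DESeq2 adjusted p = 0.0305). Here the 2 libraries of each group were close to each other, and the second library of each was the higher.

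The other members showed smaller differences. Gbp4 had 0.498 and 1.06 RPKM alone and 2.39 and 1.48 RPKM after co-culture, and Gbp8 had 0.364 and 2.36 RPKM and then 2.76 and 4.56 RPKM. The groups did not overlap for either, but the log2 fold changes of 1.36 (SE 0.59) and 1.49 (SE 0.97) were not called by edgeR or DESeq2. Gbp9, with 0.451 and 1.52 RPKM alone and 0.948 and 2.92 RPKM after co-culture, overlapped between the groups. Gbp2b, the gene next to Gbp2, was covered by 13 and 26 exon reads alone and by 6 and 20 after co-culture. Its log2 fold change was −0.36 (SE 1.09). A rise of the size of that of Gbp2 or Gbp3 was thus not seen, while a small difference could not be resolved at these counts.

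In all, 7 of the 9 members were higher after co-culture in both libraries than in either library of keratinocytes alone, while 19.8% of all genes tested showed such a separation. By a second rule, a ratio of mean RPKM of 2.5 or more with at least 5 RPKM in the mean of 1 of both groups, built on thresholds that the study names without saying how they were combined, all 4 members that reached 5 RPKM were higher (Gbp2, Gbp3, Gbp6 and Gbp7), beside 1.65% of the 7530 genes that reached it. By mean RPKM, Gbp2 was 84.9-fold and Gbp3 75.0-fold higher, Gbp7 11.8-fold and Gbp6 8.52-fold. Gbp4, Gbp5, Gbp8 and Gbp9 stayed below 5 RPKM in both groups. The median log2 fold change of the 9 members was 2.35, and that of all genes tested 0.02.

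T cell RNA in the keratinocyte libraries can be set beside these values. Scaled by the 11 T cell markers, the co-cultured keratinocyte libraries held 6.07% and 33.2% of the marker level of co-cultured T cells, and multiplied with the T cells' mean level of Gbp2 this came to 9.26 and 50.7 RPKM, against 579 and 203 RPKM measured. For Gbp3 it came to 0.871 and 4.77 RPKM, against 147 and 55.1 RPKM. In keratinocytes alone the products were 7.37 and 28.1 RPKM for Gbp2, against 2.74 and 6.47 RPKM measured, and 0.693 and 2.64 RPKM for Gbp3, against 0.708 and 1.98 RPKM measured. The measured levels of both genes thus lay above the products in co-culture, whereas in keratinocytes alone Gbp2 lay below them and Gbp3 near or below them. In co-culture the first library, with fewer T cell markers, had the higher level of Gbp2, Gbp3, Gbp4, Gbp6 and Gbp7, and the second that of Gbp2b, Gbp5, Gbp8 and Gbp9. The T cell markers in the keratinocyte libraries came with little Cd8a and Cd8b1. Cd4 reached 84.5 RPKM in the second co-cultured library, against 64.6 and 62.0 RPKM in co-cultured T cells. The products thus use the Gbp levels of T cells with another make-up of markers. B cell and myeloid markers summed to 16.1 and 65.4 RPKM in keratinocytes alone and to 22.4 and 102 RPKM in co-cultured keratinocytes. The part of T cell RNA, or of RNA of these other cells, in the difference between the groups was not tested.

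The same products were 0.851 and 4.66 RPKM for Gbp8, against 2.76 and 4.56 RPKM measured, and 0.884 and 4.84 RPKM for Gbp9, against 0.948 and 2.92 RPKM measured. For Gbp4 they were 0.535 and 2.93 RPKM, against 2.39 and 1.48 RPKM measured, and for Gbp5 0.912 and 4.99 RPKM, against 1.96 and 2.56 RPKM measured. For Gbp6 they were 1.88 and 10.3 RPKM, against 10.9 and 8.42 RPKM measured. In each of these 5 genes the product lay below the measured level in the first library and above it in the second. The part of T cell RNA in the levels of these 5 genes was not tested. Scaled by Cd8a and Cd8b1 alone, the libraries held 0.173% and 0.414% of the T cell level, which gives at most 0.128 RPKM for any gene of chromosome 5.

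**Figure D4:**
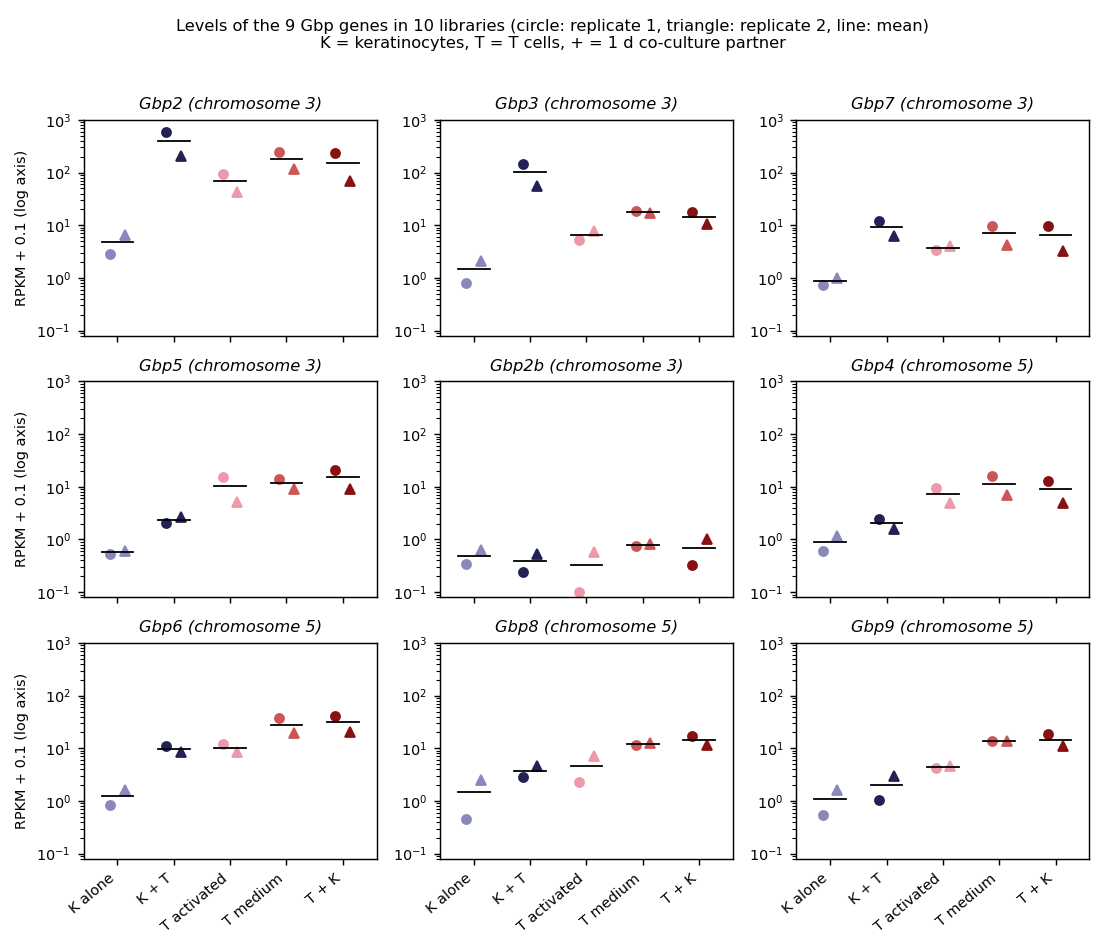
RPKM + 0.1 (log axis) of each Gbp gene in the 10 libraries, circles for replicate 1, triangles for replicate 2 and lines for group means. Gbp2 and Gbp3 reach their highest values, 579 and 147 RPKM, in co-cultured keratinocytes, whereas Gbp4, Gbp5, Gbp6, Gbp8 and Gbp9 are highest in T cells.

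The next comparison sets T cells after 1 further day in keratinocyte medium against T cells collected after the activation. The medium, the further day and the end of the activation cannot be told apart in it. T cells differed from keratinocytes in having all members other than Gbp2b above 2 RPKM in every library. After the day in medium all 9 log2 fold changes were positive, with a median of 1.55 against −0.01 over all 11863 genes tested, but only Gbp9 passed the edgeR test, beside 2.32% of all genes called higher. Without overlap, 7 of the 9 members were higher in medium, beside 22.1% of all genes. By the fold rule 5 of the 8 members that reached 5 RPKM were higher, Gbp2, Gbp3, Gbp6, Gbp8 and Gbp9, beside 6.14% of all genes.

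Gbp9, a little studied member of the chromosome 5 cluster, stood at 4.17 and 4.50 RPKM in activated T cells and at 13.5 and 13.6 RPKM after the day in medium. The libraries of each group were nearly equal, and the log2 fold change was 1.79 (SE 0.35, edgeR adjusted p = 0.0275). Counted on unique reads alone, which are 13.7% of its reads, the log2 fold change was 1.97 (SE 0.51, edgeR adjusted p = 0.0576), outside the threshold, and the call was also lost in the fit of all 10 libraries and when any of the 4 libraries compared was left out. DESeq2 called Gbp9, Gbp2, Gbp3 and Gbp6 higher, beside 6.77% of the 12030 genes with an adjusted p.

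Gbp3 went from 5.19 and 7.79 RPKM to 18.2 and 17.2 RPKM, and Gbp6 from 11.8 and 8.37 RPKM to 36.8 and 19.4 RPKM. Their log2 fold changes of 1.58 (SE 0.39, edgeR adjusted p = 0.0521) and 1.61 (SE 0.42, edgeR adjusted p = 0.0605) lay just outside the threshold, without overlap of the groups. Gbp2 had 93.8 and 43.5 RPKM and then 246 and 118 RPKM, a log2 fold change of 1.55 (SE 0.60, edgeR adjusted p = 0.157). Here the libraries within each group differed about as much as the groups did.

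Gbp8 had 2.20 and 7.001 RPKM in activated T cells and 11.3 and 12.3 RPKM in medium, and Gbp7 3.28 and 3.99 RPKM and then 9.78 and 4.202 RPKM. Neither passed the test. Gbp4, with 9.23 and 4.88 RPKM and then 15.9 and 6.81 RPKM, and Gbp5, with 15.4 and 4.97 RPKM and then 14.2 and 8.86 RPKM, overlapped between the groups. Gbp2b was at 0 reads in the first library of activated T cells, which allows up to 0.0632 RPKM (3 reads), and reached at most 0.926 RPKM in any library. Such limits cover counting error only.

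The co-cultured T cells were also set against the activated ones. Gbp9 was measured at 18.3 and 10.9 RPKM and Gbp6 at 41.8 and 20.3 RPKM after co-culture, and both were called higher, with log2 fold changes of 1.92 (SE 0.35, edgeR adjusted p = 0.0160) and 1.79 (SE 0.42, edgeR adjusted p = 0.0356). These were 2 of 9 members, beside 4.59% of all genes. Without the first library of activated or of co-cultured T cells 0 members were called, and the Gbp6 call was also lost without the second library of activated T cells. Gbp3 was measured at 18.1 and 10.6 RPKM and Gbp8 at 16.7 and 11.3 RPKM, and they did not overlap with activated T cells either. In all, 4 of the 9 members did not overlap, beside 23.6% of all genes, and 3 of 8, Gbp6, Gbp8 and Gbp9, passed the fold rule, beside 7.94%. The comparison shares the activated T cells with the one before, and time after activation, medium and keratinocytes cannot be told apart in it.

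The gene Gbp10, which shares most of its sequence with Gbp6, was called in both comparisons, with log2 fold changes of 2.80 (SE 0.61, edgeR adjusted p = 0.0366) in medium and 3.13 (SE 0.61, edgeR adjusted p = 0.0197) after co-culture. Together the reads of Gbp6, Gbp10 and Gm43302 came to 63.9 and 42.9 CPM in activated T cells, 227.8 and 138.7 in medium and 292.7 and 144.5 after co-culture. The combined level, which does not depend on how reads were split among these copies, was thus higher in all 4 later libraries. It may still depend on reads shared with places outside these genes. Markers of B cells and myeloid cells summed to 192 and 360 RPKM in activated T cells, 225.2 and 346 RPKM in medium and 122 and 128 RPKM after co-culture, and their part in the Gbp levels was not tested.

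The contrast with equal time after activation sets T cells from the co-culture beside those kept in medium. Keratinocytes need not be the only difference in it. B cell and myeloid markers were lower in the co-cultured libraries, and labels and methods name the control medium differently. No member passed a test: edgeR called 0 of 9 members, beside 0.261% of all genes, and 0 members were higher at an unadjusted p under 0.05, beside 2.7% of all genes. DESeq2 also called 0 members. The log2 fold changes ran from −0.33 for Gbp4 to 0.41 for Gbp5, and their SE was 0.34 for Gbp9, 0.38 for Gbp3, 0.41 for Gbp6, 0.54 to 0.58 for Gbp2, Gbp4, Gbp5, Gbp7 and Gbp8 and 1.58 for Gbp2b. Gbp2 was measured at 237 and 67.8 RPKM with keratinocytes and at 246 and 118 RPKM without them, so the groups overlapped, and leaving out single libraries turned the direction for 7 of the 9 members.

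Keratinocyte RNA was present in the co-cultured T cells at 0.592% and 0.197% of the marker level of co-cultured keratinocytes. Multiplied with the keratinocytes' mean level, this gives 2.31 and 0.772 RPKM of Gbp2 and 0.597 and 0.199 RPKM of Gbp3, a small part of what was measured there.

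The co-culture effect in keratinocytes was then set against that in T cells. The keratinocyte side also holds the addition of X-vivo medium, which by the methods both T cell groups had. Medium and partner cells therefore cannot be told apart in the difference. In 1 edgeR fit of 8 libraries, the difference of the 2 log2 fold changes was 6.50 for Gbp3 (SE 0.88, edgeR adjusted p = 0.0290), which was called, and 6.64 for Gbp2 (SE 1.11, edgeR adjusted p = 0.0648), which was not. Only Gbp3 of the 9 members passed, and only 0.053% of all genes did in this direction. The difference for Gbp7 was 3.69 (SE 0.85) and for Gbp6 2.95 (SE 0.69), without a call. The Gbp3 call was lost with at least 10 reads asked for in every library, and when either library of keratinocytes alone, of T cells in medium or of co-cultured T cells was left out, with an adjusted p of at most 0.128 over all settings.

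Within the co-culture the partners differed in which members they expressed. Gbp3 was lower in T cells, with a log2 fold change of −2.74 (SE 0.58, edgeR adjusted p = 0.0109), and it was the only member among the 17.0% of genes called lower. Gbp5, Gbp9, Gbp4 and Gbp6 were higher in T cells, beside 6.73% of all genes called higher. Their log2 fold changes were 2.73 (SE 0.56), 2.90 (SE 0.69), 2.22 (SE 0.59) and 1.72 (SE 0.44), with edgeR adjusted p from 0.00977 to 0.0263. For Gbp2 the value was −1.32 (SE 0.69, edgeR adjusted p = 0.194), and for Gbp7 −0.48 (SE 0.53). Without the first library of co-cultured keratinocytes, or without the first of co-cultured T cells, edgeR called 0 members. The calls of Gbp4 and Gbp6 were also lost without the second library of co-cultured keratinocytes, and that of Gbp3 without the second of co-cultured T cells.

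**Figure D5:**
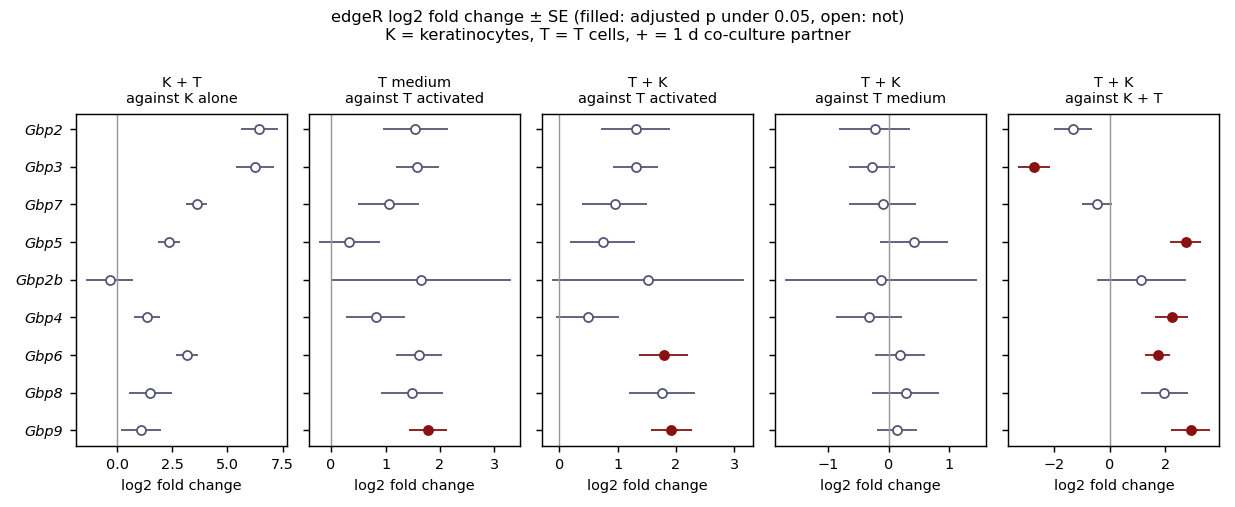
edgeR log2 fold changes (points) with SE (bars) of the 9 Gbp genes in 5 comparisons, each panel with its own x axis; filled points passed an adjusted p of 0.05. Co-cultured keratinocytes show large open points, up to 6.43 for Gbp2, and the T cell to keratinocyte panel has Gbp3 at −2.74 and Gbp5, Gbp4, Gbp6 and Gbp9 on the other side of 0.

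The genes that act before and beside the Gbp genes were counted from lists on the IFN-γ pathway, the IRGs, the cell death machinery linked to GBPs, prenylation and other dynamin-like GTPases. Ifng itself, the gene of the cytokine, was at 601 ± 16.5 RPKM (SD, n = 2) in activated T cells and at 6.57 ± 0.883 RPKM in medium and 4.73 ± 2.08 RPKM after co-culture. On the log2 scale it fell by 6.36 (SE 0.49, edgeR adjusted p = 0.00345) in medium and fell by 6.77 (SE 0.50, edgeR adjusted p = 0.00162) in co-culture, so that Gbp9 rose and Ifng fell in the same libraries. Keratinocyte libraries showed 1.94 ± 0.962 RPKM of Ifng without T cells and 3.64 ± 3.22 RPKM with them.

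The receptor genes were present in both cell types, Ifngr1 at 33.2 ± 11.8 and Ifngr2 at 9.99 ± 0.959 RPKM in keratinocytes alone. Irf1 had a level of 4.45 ± 1.79 RPKM without T cells and 60.3 ± 2.82 RPKM with them (log2 fold change 3.83, SE 0.45, edgeR adjusted p = 0.434). Its 2 effects of co-culture differed between keratinocytes and T cells by 3.73 (SE 0.54, edgeR adjusted p = 0.0364).

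Of the 14 genes of the IFN-γ pathway, edgeR called 0 in keratinocytes and 2 lower in each comparison with activated T cells. These were Ifng and Irf8, the latter named after its values were seen, with −2.14 in medium and −1.71 after co-culture on the log2 scale. Over all 11863 genes tested, 501 were called lower in medium and 678 after co-culture. Of the 8 IRG genes in the tables, 0 were called in keratinocytes, where their median log2 fold change was 4.04 and all 8 had an unadjusted p under 0.05. At that threshold 3.08% of all genes were higher. Irgm2 and Tgtp2 rose in medium, and Igtp, Irgm2, Tgtp1 and Tgtp2 rose after co-culture, all named after their values were seen. Beside them, 2.32% of all genes were called higher in medium and 4.59% after co-culture. With against without keratinocytes, 0 genes of either list were called in T cells, beside 0.261% of all genes.

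In keratinocytes the other 3 lists showed 0 calls and median log2 fold changes of 0.94 for 7 cell death genes, −0.29 for 8 prenylation genes and −0.26 for 9 dynamin-like GTPases. Fdps, an enzyme that makes prenyl groups, fell in T cells in medium against activated T cells and was named after its values were seen.

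Across the 10 libraries, 5 genes outside the family had the profile most like that of the summed Gbp level. They were picked among 8736 genes with at least 5 RPKM in a group by the root mean square distance of centred log2(RPKM + 1) values. The nearest were the IRGs Irgm1 (0.52) and Tgtp1 (0.52), followed by Iigp1 (0.62), the nucleic acid sensor Zbp1 (0.66) and Irf1 (0.73). The sum mostly follows Gbp2, which lay 0.27 from it. The other members lay farther from the sum than these 5 genes, from 0.85 for Gbp3 to 1.98 for Gbp2b. Irgm1 averaged 6.69 RPKM in keratinocytes without and 156 RPKM with T cells, and 69.8 RPKM in T cells after activation, 102 RPKM in medium and 119 RPKM with keratinocytes. Among the members themselves, Gbp4 and Gbp5 were closest to each other (0.41), then Gbp8 and Gbp9 (0.45), whereas Gbp2 and Gbp3 lay 0.94 apart. Gbp4 and Gbp5 lie on different chromosomes.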

How the data were processed

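Poly(A) RNA of 10 libraries was sequenced as single reads of 59 bases. The authors mapped these to GRCm38 with CLC Genomics Workbench at default RNA-Seq settings and deposited 1 table per library. Its read counts per gene are whole, deposited without normalization, and come as total exon reads (unique reads plus reads of several places that the software assigned to the gene) and unique exon reads. The deposited RPKM values, written with decimal commas, are proportional to total exon reads over exon length. The annotation release is not given in the sources used here. Libraries held 12864931 to 18019609 exon reads.

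Groups followed the labels. Replicate numbers of T cells in medium and in co-culture were given in accession order and pair nothing. Total exon reads entered the quasi-likelihood test of edgeR 4.0.16 (R 4.3.3) after filterByExpr and TMM, with Benjamini-Hochberg adjustment over all genes tested and calls at an adjusted p under 0.05. The keratinocyte contrast used 4 libraries, the T cell contrasts 6, the difference of co-culture effects 8 and the contrast of the partners 10. SE is the size of the log2 fold change over the square root of F. The steps were tested on simulated data. Alternatives covered limma 3.58.1 (log2(RPKM + 1), log2(RPKM + 0.1)), DESeq2 1.42.0, other filters and scalings, unique reads, a replicate block and each library left out. In keratinocytes the block was also fitted after removal of a smooth trend with exon length in each library's deviations from the mean of each gene. The source of this length trend was not tested.

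All 9 members were named by rule. Of the other lists Ifng, Ifngr1, Ifngr2 and Irf1 are named by rule and exceptions are marked, and results of some further genes are not reported here. The members and lists were chosen with earlier results of these data known. Of 10 IRG genes listed, Irgd and Gm12250 were not among the names in the tables. Start regions came from RefSeq (GRCm38.p6), transcript windows from GENCODE vM21. Protein sequences were not used here.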

Additional observations from a re-analysis of the deposited data

Results flagged for a closer look

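The effect of co-culture differed between keratinocytes and T cells, by the test of the difference itself, for Gbp3 by 6.50 on the log2 scale (SE 0.88, edgeR adjusted p = 0.0290, higher in 2 of 2 co-cultured keratinocyte libraries) and for Irf1 by 3.73 (SE 0.54, edgeR adjusted p = 0.0364). Gbp2 had a difference of 6.64 (SE 1.11) and an edgeR adjusted p of 0.0648. The keratinocyte side of these differences includes the X-vivo medium of the co-culture. The calls of Gbp3 and Irf1 were lost with at least 10 reads asked for in every library, where 0 genes were called. With 2 libraries a group, no test for single libraries far from their group was possible.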

How the results depend on the processing

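The number of Gbp members called by edgeR was 0 for keratinocytes with against without T cells, but 5 with DESeq2 and with the replicate block and the length trend removed, 2 without a filter, 1 with all 10 libraries in 1 fit, and 0 to 5 with a library left out. It was 1 for T cells in medium against activated, but 4 with DESeq2, 5 without a filter, 3 with at least 10 reads in every library, 0 on unique reads and with all 10 libraries in 1 fit, and 0 to 1 with a library left out. It was 2 for co-cultured against activated T cells, but 4 with DESeq2, 1 with limma on log2(RPKM + 1), with limma on log2(RPKM + 0.1), with library size in place of TMM, on unique reads and with all 10 libraries in 1 fit, 5 without a filter, and 0 to 2 with a library left out. It was 0 for co-cultured T cells against medium. It was 1 for the difference of the effects, but 4 with DESeq2, 2 with limma on log2(RPKM + 0.1), 3 without a filter, 0 with at least 10 reads in every library, and 0 to 2 with a library left out. It was 5 for the co-culture partners, but 3 on unique reads, and 0 to 4 with a library left out. The number of all genes called was 0 for keratinocytes with against without T cells, but 177 with DESeq2, 11 without a filter, 4 with all 10 libraries in 1 fit, 2 with the replicate block, 515 with the replicate block and the length trend removed, and 0 to 1164 with a library left out. It was 776 for T cells in medium against activated, but 1843 with DESeq2, 1945 without a filter, and 24 to 594 with a library left out. It was 1222 for co-cultured against activated T cells, but 2232 with DESeq2, 2425 without a filter, and 266 to 1069 with a library left out. It was 31 for co-cultured T cells against medium, but 88 with DESeq2, 99 with limma on log2(RPKM + 1), 107 with limma on log2(RPKM + 0.1), 141 without a filter, 0 with at least 10 reads in every library, 83 with all 10 libraries in 1 fit, and 16 to 52 with a library left out. It was 76 for the difference of the effects, but 352 with DESeq2, 205 without a filter, 0 with at least 10 reads in every library, and 21 to 105 with a library left out. It was 3177 for the co-culture partners, but 1904 with at least 10 reads in every library, and 1614 to 3336 with a library left out. The number of members past the fold rule was 4 for keratinocytes with against without T cells. It was 5 for T cells in medium against activated, but 3 with RPKM scaled by the share of unique reads, and 3 to 5 with a library left out. It was 3 for co-cultured against activated T cells, but 1 with RPKM scaled by the share of unique reads, and 1 to 6 with a library left out. It was 0 for co-cultured T cells against medium, and 0 to 1 with a library left out. It was 7 for the co-culture partners, but 4 with RPKM scaled by the share of unique reads. Log2 fold changes without a call changed sign when 1 library was left out. For keratinocytes with against without T cells they ranged over Gbp2b −1.49 to 0.37, Gbp9 −0.075 to 2.25, Ifng −0.53 to 1.72, Ifngr1 −0.49 to 0.86 and Ifngr2 −0.36 to 0.035. For T cells in medium against activated they ranged over Gbp5 −0.24 to 1.31 and Ifngr2 −0.047 to 0.46. For co-cultured against activated T cells they ranged over Gbp4 −0.22 to 0.97. For co-cultured T cells against medium they ranged over Gbp2 −1.26 to 0.36, Gbp2b −1.59 to 0.58, Gbp4 −1.04 to 0.28, Gbp5 −0.21 to 0.84, Gbp6 −0.30 to 0.60, Gbp7 −0.97 to 0.50, Gbp9 −0.17 to 0.38, Ifng −1.07 to 0.052 and Irf1 −0.16 to 0.31. For the difference of the effects they ranged over Gbp2b −1.39 to 1.24, Gbp9 −0.25 to 2.11, Ifng −0.16 to 2.17 and Ifngr1 −1.03 to 0.39. For the co-culture partners they ranged over Gbp2b −0.41 to 2.27, Gbp7 −1.27 to 0.034, Ifng −0.33 to 1.99 and Irf1 −0.23 to 0.14. In the difference of the effects Gbp2b also changed sign with limma, to 0.0082 and 0.021. Of the other values of single genes, 816 kept direction and side of the threshold, 49 lost a call and 70 gained one. In keratinocytes the replicate block left 0 members called, and libraries with the same number deviated together from their group means (r = 0.56 across 12515 genes), but with 2 pairs and no batch given for the numbers they were not taken as paired. In the T cells replicate numbers pair no samples. Depth limits Gbp2b, with 0 to 37 exon reads in any library, and multiple mapping limits Gbp4, Gbp6 and Gbp9. Why calls differed between settings was not tested.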
